A study of Mus musculus with 12 samples.

Results

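The genes of oxidative phosphorylation were followed through RNA sequencing of the mouse embryonic cortex. The set holds the protein-coding genes whose mouse symbol begins with mt-Nd, mt-Co, mt-Cytb or mt-Atp, with Nduf and a subunit letter and number, with Sdha to Sdhd, with Uqcr, with Cox4 to Cox8 or with Atp5. The rule itself uses symbols and no measured value. It gave 97 genes of the 21695 protein-coding genes among the 48709 genes counted, 84 encoded in the nucleus and 13 in mitochondrial DNA. A further 10 processed pseudogenes with such symbols were left out, and the highest count of any of them was 7 reads.

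Each cell makes most of its ATP by passing electrons from nutrients through complexes I to IV of the inner mitochondrial membrane, which pump protons that then drive complex V, the ATP synthase. Complex I takes electrons from NADH and complex II from succinate, both hand them to coenzyme Q, complex III passes them to cytochrome c, and complex IV, cytochrome c oxidase, gives them to oxygen. Mitochondrial DNA encodes a few core subunits of complexes I, III, IV and V, the nucleus encodes all others and the whole of complex II, so the complexes need both genomes. In the developing cortex, the change from dividing progenitors to neurons is known to come with a move from glycolysis towards respiration.

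The 12 libraries came from cortex at E15.5, an embryonic age in days, of mice labelled C57BL/6J, 4 from control, 4 from a BAF155 conditional knockout (cKO) and 4 labelled Pax6 cKO, and the study compared each knockout with control. BAF155, the protein of Smarcc1, is a scaffold subunit of BAF remodellers, which move nucleosomes, and Pax6 is a transcription factor of cortical progenitors. The labels name neither the Cre driver nor the floxed alleles nor the genotype of the controls, and do not say whether a library is 1 embryo, a pool or a repeat of another. The p-values below therefore rest on differences between libraries of 1 group that may be only technical.

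Smarcc1 was lower than in control in the BAF155 cKO, with a log2 fold change of −1.25 (adjusted p = 1.64e-05, SE 0.13). Pax6 went against its label: it was at 380 to 399 CPM across the libraries labelled Pax6 cKO and at 82.0 to 125 CPM in control, a log2 fold change of 1.82 (adjusted p = 9.46e-08, SE 0.12). Both genes moved the same way in the other knockout group. Pax6 was at 273 to 369 CPM in the BAF155 cKO, a log2 fold change of 1.51 against control (adjusted p = 9.98e-07, SE 0.12). Smarcc1 had a log2 fold change of −0.71 in the libraries labelled Pax6 cKO (adjusted p = 0.00128, SE 0.13). Counts per gene, the data used here, cannot show whether the reads come from an altered allele. Totals ran from 15.16 to 32.05 M reads. Lane numbers in the names of the count files put all controls in lane 8, which held no knockout library, so lane and group cannot be told apart for either comparison with control. By their Xist counts, controls 1 and 2 and all libraries labelled Pax6 cKO were male, and controls 3 and 4 and all BAF155 cKO libraries were female. Neuron markers summed to 7223 to 8511 CPM in control, 5226 to 7200 CPM in the BAF155 cKO and 5782 to 6647 CPM across the libraries labelled Pax6 cKO. In bulk tissue, fewer cells of a type and less RNA per cell cannot be told apart. In the same order, radial glia markers summed to 2083 to 2145, 1580 to 1746 and 1806 to 2000 CPM and erythroid markers to 269 to 371, 340 to 661 and 498 to 556 CPM. The radial glia sum holds opposite moves. Across the libraries labelled Pax6 cKO, Fabp7 was higher, at 1116 to 1293 CPM against 702 to 1006 CPM in control (adjusted p = 0.0116). Vim, Nes, Slc1a3, Hes1 and Hes5 were each lower there at an adjusted p under 0.05. The neuron sum was mixed too. Neurod2, Neurod6 and Tbr1 were each lower than in control in both knockout groups at an adjusted p under 0.05. Tubb3 and Map2 were not called in the BAF155 cKO (adjusted p = 0.231 and 0.26) or the libraries labelled Pax6 cKO (0.55 and 0.757). Dcx was lower in the libraries labelled Pax6 cKO (adjusted p = 0.0268) and not called in the BAF155 cKO (adjusted p = 0.158). Of the liver markers, Alb was at 0 to 0.0967 CPM in control, 0.621 to 157 CPM in the BAF155 cKO, highest in replicate 4, and 0 to 0.141 CPM in the libraries labelled Pax6 cKO. Ttr, a gene of liver and choroid plexus, was at 12.9 to 318 CPM in the libraries labelled Pax6 cKO and 9.94 to 25.8 CPM in control. The part of these cells in the results below was not tested.

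Levels are given as CPM, counts scaled to a fixed library size with TMM factors, and levels of different genes are compared only after division by the length of the messenger RNA (CPM per kb). A gene is said to have risen or fallen where edgeR's quasi-likelihood F-test, fitted to all 12 libraries and adjusted by Benjamini-Hochberg over 16511 genes, gave an adjusted p under 0.05. Of the nuclear genes of the set, 80 of 84 passed the filter on low counts, as did 7 of the 13 mitochondrial genes.

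A pair of sequence kinds bears on how these genes could be counted and on what their promoters share. The first is the start of mt-Nd3, a complex I subunit of mitochondrial DNA (mm10 chrM:9459-9806, plus strand), and of Gm28438, the copy of it on chromosome 1 (mm10 chr1:24612775-24613119, minus strand), both as in GENCODE M21, with the base that differs in capitals.
mt-Nd3: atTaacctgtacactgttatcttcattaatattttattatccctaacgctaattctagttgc
Gm28438: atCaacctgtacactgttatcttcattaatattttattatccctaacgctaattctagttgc
That was the only difference over 345 aligned bases, an identity of 99.71%.

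The second kind is the promoter. RefSeq (GRCm38.p6) held a promoter, from 250 bases before to 50 bases after the start, for 66 of the 84 nuclear genes, and 3 motifs known for regulators of respiratory genes were searched on both strands in it. Stretches upstream of 4 of these genes are shown with the motif in capitals, the palindromic motif of NRF1 in the first pair, whose letters are the 10 capitals, and CCGGAAG, the core bound by ETS factors such as GABPA, on the opposite strand in the second pair.
Ndufa11 (chr17:56717667-56717746, plus strand): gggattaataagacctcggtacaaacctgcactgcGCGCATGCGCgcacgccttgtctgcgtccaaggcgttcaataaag
Cox6a1 (chr5:115349076-115349155, minus strand): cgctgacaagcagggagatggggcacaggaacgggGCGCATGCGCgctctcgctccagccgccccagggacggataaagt
Sdhd (chr9:50603854-50603930, minus strand): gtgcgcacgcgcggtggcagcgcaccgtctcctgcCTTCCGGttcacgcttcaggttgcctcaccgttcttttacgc
Atp5e (chr2:174464162-174464238, minus strand): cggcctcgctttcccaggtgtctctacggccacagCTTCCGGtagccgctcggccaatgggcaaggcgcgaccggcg
The NRF1 letters stood in 5 of the 66 promoters (7.58%), against 1.47% of the 17492 promoters of protein-coding genes in the same table. The ETS letters stood in 16 (24.2%, against 12.9% of all), and the YY1 letters AAGATGGC in 9 (13.6%, against 3.57% of all). At least 1 of the 3 was found in 27 member promoters, 40.9%, and in 16.9% of all promoters. A match is a run of letters and not a measured site of binding.

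In control cortex the nuclear genes spanned a wide range of levels. Atp5b, the catalytic beta subunit of ATP synthase, was the most abundant at 614 CPM per kb, followed by Cox4i1, a nuclear subunit of cytochrome c oxidase, at 437 CPM per kb. Ndufa4, first assigned to complex I and now counted with complex IV, had 421 CPM per kb. Atp5g3, which encodes the membrane c subunit of ATP synthase, had 395 CPM per kb, and Atp5a1, its alpha subunit, 344 CPM per kb. The median level was 74.7 CPM per kb for complex I, 82.6 for complex II, 119 for complex III, 115 for complex IV and 179 for complex V. The lowest tested genes of complexes I, III and V were Ndufb4, Uqcrb and Atp5g2, at 4.75, 40.1 and 3.09 CPM per kb. They share 37.0%, 43.4% and 100% of their 50-base words with other genes, so their levels are uncertain. Sdhc and Cox7a1, the lowest of complexes II and IV, share 0.0961% and 0%.

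For subunits with alternative genes, the ubiquitous form made up nearly all of the RNA. Cox4i2, the form known from lung, was 0.201 to 0.550% of the Cox4i1 and Cox4i2 level per kb over the 12 libraries, and Ndufa4l2, a form induced by low oxygen, 0.407 to 0.957% of the Ndufa4 pair. The heart and muscle forms Cox7a1, Cox6a2 and Cox8b reached at most 0.801%, 0.0730% and 0.0765% of their pairs. Cox6b2, the form known from testis, made up 0.649 to 1.77% of its pair. The 4 nuclear genes that did not pass the filter were Cox6a2, Cox7b2, Cox8b and Cox8c, with at most 4 reads in any library.

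Most nuclear genes of the set were higher than control in the libraries labelled Pax6 cKO. Of the 80 tested, 55 rose and 1 fell, and their median log2 fold change was 0.46. Over all 16511 genes, 16.6% rose, 18.9% fell and the median was 0.02. In 55 nuclear genes all 4 libraries labelled Pax6 cKO lay above all 4 controls, which was so for 17.2% of all genes. The summed level of the nuclear genes was 9891, 9987, 8419 and 8475 CPM in controls 1 to 4, and 11036, 12557, 11329 and 11504 CPM in replicates 1 to 4 labelled Pax6 cKO. The groups did not overlap, and controls 3 and 4 were the lowest of all 12 libraries.

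**Figure D1:**
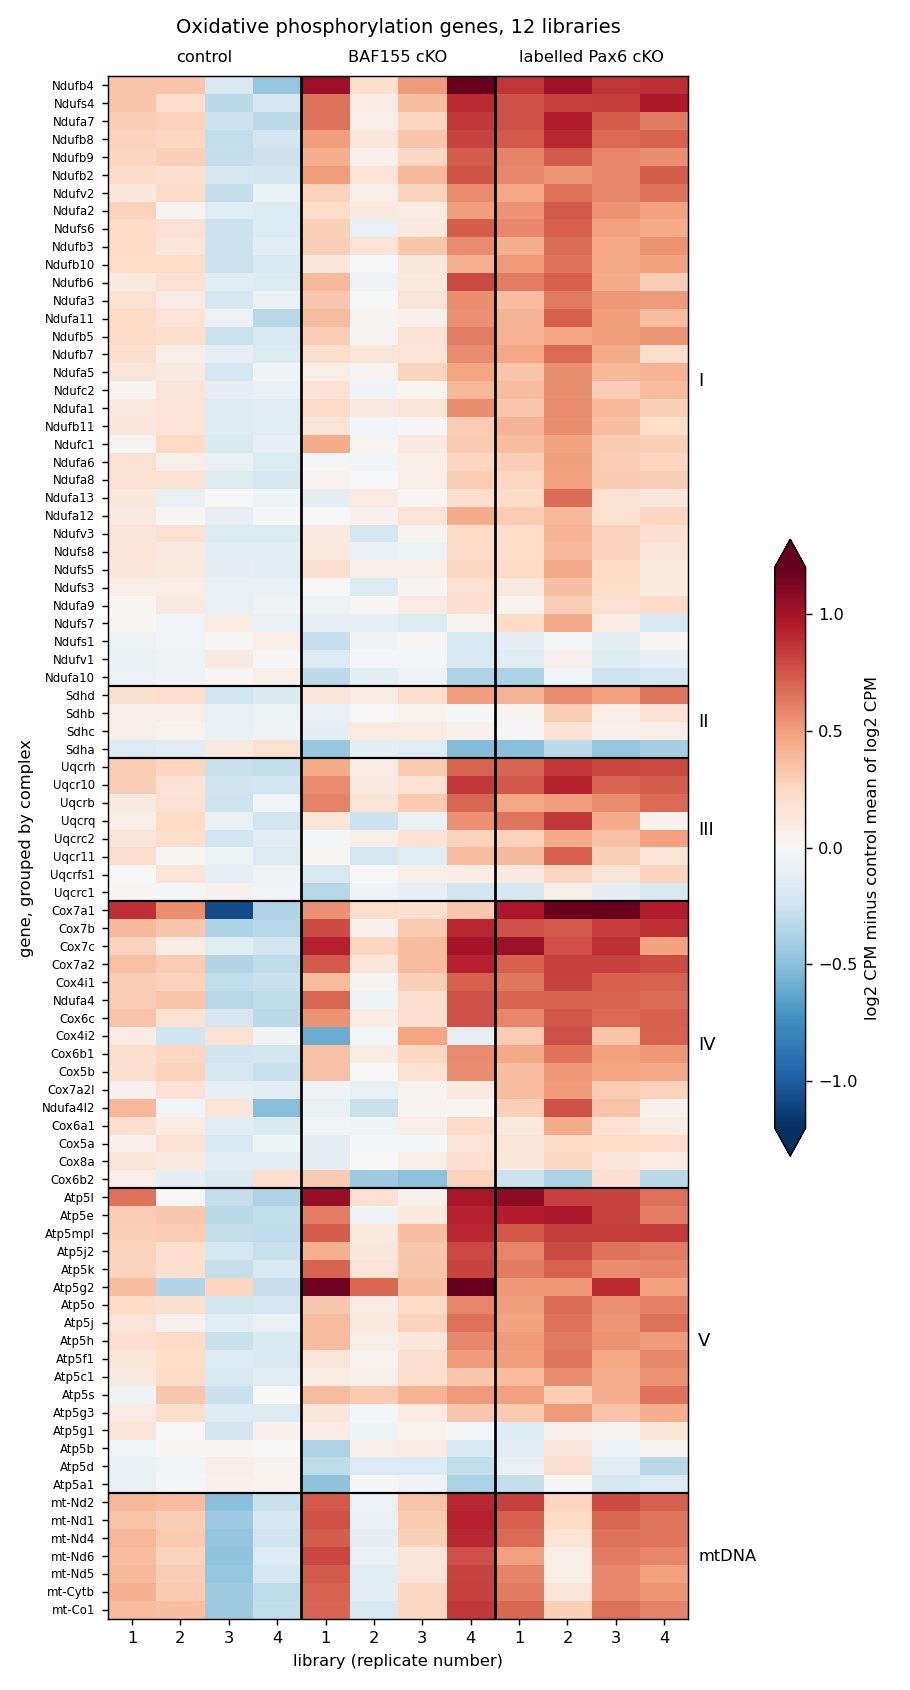
Heat map of the tested genes, 1 of them left out (vertical axis, grouped by complex, mitochondrially encoded genes last) in the 12 libraries (horizontal axis), coloured by log2 CPM minus the mean of the control libraries. Most nuclear genes are above control in all 4 libraries labelled Pax6 cKO, controls 3 and 4 lie below controls 1 and 2, and BAF155 cKO replicates 1 and 4 lie above 2 and 3.

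Complex I, which takes in NADH electrons, had 26 of 35 nuclear genes higher in the libraries labelled Pax6 cKO and none lower, with a median log2 fold change of 0.40. Its accessory subunits, which surround the catalytic core and help to assemble and hold it, rose in 24 of 28 cases with a median of 0.46. The 7 nuclear core subunits, which carry the flavin, the iron-sulphur clusters and the quinone site, had 2 genes that rose, Ndufv2 and Ndufs8, and a median of 0.17.

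Ndufs4, an accessory subunit needed for a stable complex I, was at 131, 120, 82.9 and 89.7 CPM in controls 1 to 4 and at 176, 184, 185 and 202 CPM in replicates 1 to 4 labelled Pax6 cKO. No library of either group overlapped with the other, and the log2 fold change was 0.82 (adjusted p = 0.0021, SE 0.16). Ndufb8, an accessory subunit of the membrane arm, went from 78.6, 77.0, 52.9 and 55.6 CPM to 108, 121, 104 and 106 CPM, a log2 fold change of 0.73 (adjusted p = 0.00221, SE 0.15). Its exons share 13.5% of their 50-base words with Gm20538, which overlaps it on the same strand. Ndufa2 rose by a log2 fold change of 0.56 (adjusted p = 0.0021, SE 0.11), from 68.3 to 92.5 CPM in control to 107 to 127 CPM.

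Ndufb9, the most abundant complex I gene per kb in control, had 155, 159, 106 and 109 CPM in controls and 196, 217, 195 and 192 CPM across the libraries labelled Pax6 cKO. The groups did not overlap, and the log2 fold change was 0.60 (adjusted p = 0.00711, SE 0.15). Among core subunits, Ndufv2 rose by 0.58 (adjusted p = 0.00229, SE 0.12) and Ndufs8 by 0.26 (adjusted p = 0.0499, SE 0.10). Ndufs1, the large iron-sulphur subunit, had a log2 fold change of −0.06 (adjusted p = 0.598, SE 0.08) and Ndufv1, the flavin subunit, −0.08 (adjusted p = 0.41, SE 0.08), and in both the groups overlapped.

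Complex II was split. Sdha, the flavoprotein that oxidises succinate, was the only nuclear gene of the set that fell, with a log2 fold change of −0.42 (adjusted p = 0.0076, SE 0.11). It was at 202, 205, 243 and 255 CPM in controls 1 to 4 and at 159, 181, 163 and 171 CPM in replicates 1 to 4 labelled Pax6 cKO, with no overlap. Controls 3 and 4, low for most other members, were the highest of all 12 libraries for Sdha. Sdhd, a membrane anchor of the same complex, rose by 0.52 (adjusted p = 0.00378, SE 0.11), from 90.8 to 123 CPM in control to 142 to 166 CPM. Sdhb, its iron-sulphur subunit, had a log2 fold change of 0.15 (adjusted p = 0.146, SE 0.08).

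In complex III, 6 of 8 genes rose. Uqcrh, the hinge protein at the site where cytochrome c docks, was at 203, 196, 136 and 134 CPM in controls 1 to 4 and at 266, 296, 287 and 285 CPM across the libraries labelled Pax6 cKO. Every library labelled Pax6 cKO was above every control, and the log2 fold change was 0.76 (adjusted p = 0.00161, SE 0.14). Uqcr10, a small subunit, had a similar value of 0.76 (adjusted p = 0.00249, SE 0.15). The 2 genes that did not pass the test were Uqcrc1, a large core protein, at −0.10 (adjusted p = 0.349, SE 0.08) and Uqcrfs1, the Rieske iron-sulphur protein, at 0.20 (adjusted p = 0.0759, SE 0.08).

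In complex IV, 10 of 16 tested genes rose, with a median log2 fold change of 0.52. Cox4i1 was at 391, 385, 260 and 265 CPM in controls 1 to 4 and at 497, 561, 525 and 522 CPM across the libraries labelled Pax6 cKO. The groups did not overlap and the log2 fold change was 0.69 (adjusted p = 0.00368, SE 0.15), though 12.2% of its 50-base words are also in Emc8, which overlaps it on the other strand. Cox7a2 had 0.75 (adjusted p = 0.00488, SE 0.17) and Ndufa4 0.66 (adjusted p = 0.0109, SE 0.18). Cox7a1, the muscle form of the same subunit as Cox7a2, rose by 0.88 (adjusted p = 0.0355, SE 0.30), but from 0.290 to 1.12 CPM in control to 1.18 to 1.52 CPM, near the lower end of what was counted. Cox5a, Cox6a1, Cox8a, Cox4i2, Cox6b2 and Ndufa4l2 did not pass the test, with log2 fold changes between −0.17 and 0.52.

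In complex V, 12 of 17 genes rose, with a median log2 fold change of 0.53. Atp5j, coupling factor 6 of the stalk between the membrane and catalytic parts, had the smallest adjusted p of the set. It was at 136, 126, 111 and 114 CPM in controls 1 to 4 and at 170, 190, 175 and 192 CPM across the libraries labelled Pax6 cKO, without overlap, for a log2 fold change of 0.58 (adjusted p = 0.00135, SE 0.11). Exons of Atp5j overlap Gabpa on the other strand, and libraries of this kit do not keep strand, so reads there cannot be assigned.

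The 5 genes of complex V that did not pass the test include both large subunits of the catalytic head. Atp5b had 1149, 1196, 1185 and 1179 CPM in controls and 1077, 1298, 1120 and 1202 CPM across the libraries labelled Pax6 cKO, a log2 fold change of −0.00 (adjusted p = 0.982, SE 0.11). Atp5a1 had −0.16 (adjusted p = 0.288, SE 0.11). In both genes the groups overlapped. Of the 3 genes for the c subunit, Atp5g3 rose by 0.39 (adjusted p = 0.00873, SE 0.10), while Atp5g1 had 0.01 (adjusted p = 0.931, SE 0.11) and Atp5g2 0.57 (adjusted p = 0.0667, SE 0.23). Atp5g1 and Atp5g2 share 66% and 100% of their 50-base words with other genes, and Atp5g3 shares 0%. Atp5d, of the central stalk, had −0.08 (adjusted p = 0.535, SE 0.10).

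**Figure D2:**
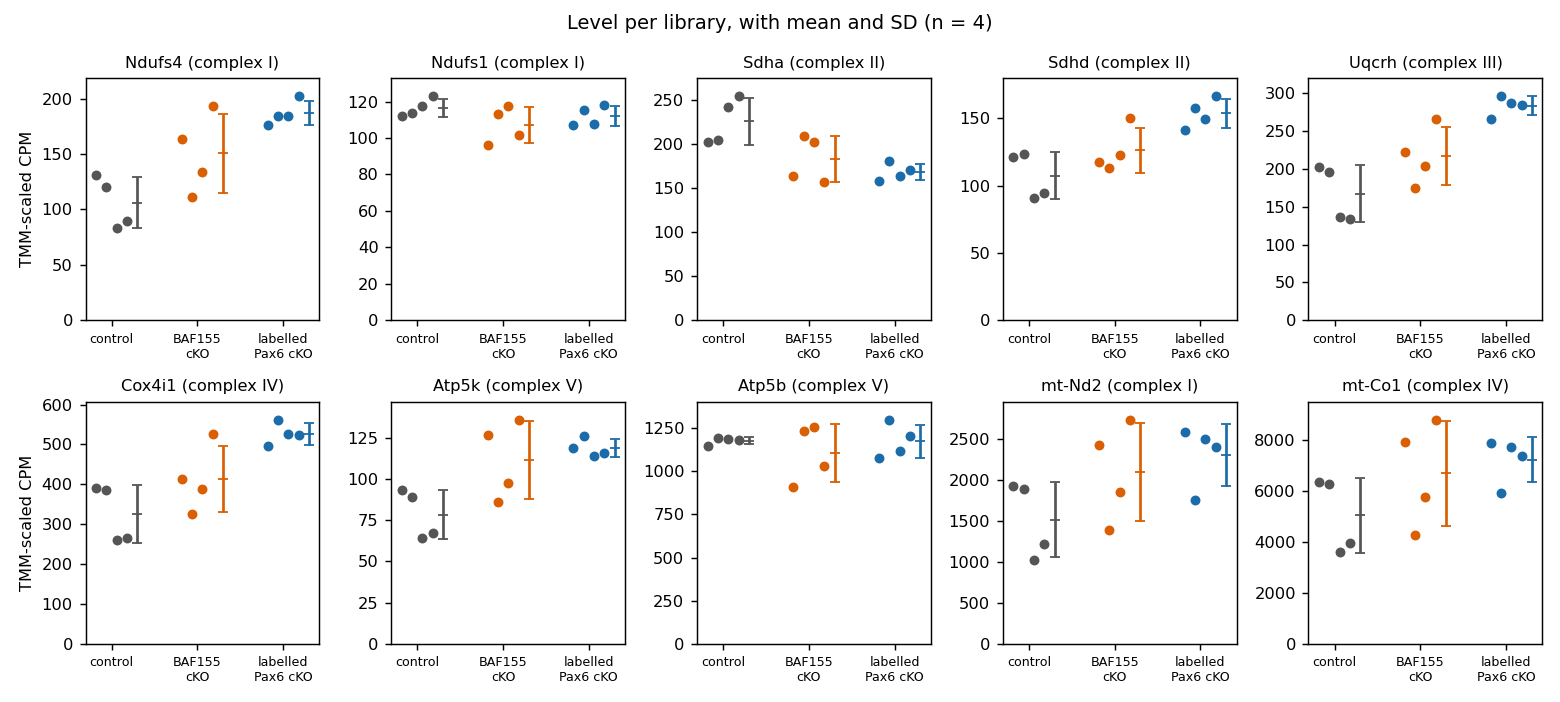
Level of 10 genes in each library (vertical axis, TMM-scaled CPM from 0; horizontal axis, the 3 groups; points are replicates 1 to 4 from left to right, bars the mean and SD, n = 4). Ndufs4, Sdhd, Uqcrh, Cox4i1 and Atp5k lie above all controls in the 4 libraries labelled Pax6 cKO, Sdha lies below, and Ndufs1, Atp5b, mt-Nd2 and mt-Co1 overlap.

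In the BAF155 cKO, 8 of the 80 nuclear genes tested rose and none fell, and the median log2 fold change was 0.22. Over all genes tested, 6.04% rose, 7.56% fell and the median was 0.01. In none of the 80 genes did all 4 BAF155 cKO libraries lie above all 4 controls, which was so for 6.47% of all genes, and in 2, Atp5d and Uqcrc1, they all lay below, against 7.95% of all genes. The summed level of the nuclear genes was 9770, 9292, 9963 and 11348 CPM in replicates 1 to 4 of the BAF155 cKO, so that only replicate 4 exceeded every control.

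The 8 genes that rose were Ndufb2 and Ndufb4 of complex I, Uqcrb of complex III, Cox7c of complex IV and Atp5g2, Atp5k, Atp5j and Atp5mpl of complex V. Cox7c, a small membrane subunit of cytochrome c oxidase, was at 12.6, 10.99, 9.33 and 8.89 CPM in controls 1 to 4 and at 19.7, 12.3, 13.4 and 20.6 CPM in replicates 1 to 4 of the BAF155 cKO. Replicate 2 lay below control 1, and the log2 fold change was 0.66 (adjusted p = 0.0245, SE 0.18). In Atp5k, the e subunit at the dimer interface of ATP synthase, replicates 1 and 4 had 127 and 136 CPM and replicates 2 and 3 had 86.2 and 97.7 CPM, against 64.1 to 93.2 CPM in control. Its log2 fold change was 0.51 (adjusted p = 0.0309, SE 0.14).

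Uqcrb, a subunit near the quinone site of complex III, had a log2 fold change of 0.44 (adjusted p = 0.028, SE 0.12) and Ndufb2 of 0.45 (adjusted p = 0.0329, SE 0.13). The highest value was in Atp5g2, at 0.86 (adjusted p = 0.0259, SE 0.23), where the controls had 1.04 to 1.72 CPM and the BAF155 cKO libraries 1.71 to 3.19 CPM. Several of these genes have near-identical copies, which can take or give reads. The share of 50-base words also found in other genes was 100% in Atp5g2, 53.0% in Cox7c, 43.4% in Uqcrb, 37.0% in Ndufb4 and 33.5% in Ndufb2, and under 10% in Atp5j, Atp5k and Atp5mpl. Among the 51 nuclear genes tested with less than 10% shared, 3 rose in the BAF155 cKO, a share near the 6.04% of all genes, and 32 rose in the libraries labelled Pax6 cKO. Among the 29 others, 5 and 23 rose.

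Sdha had a log2 fold change of −0.30 in the BAF155 cKO (adjusted p = 0.0718, SE 0.11). Core and catalytic subunits had log2 fold changes of −0.12 (Ndufs1, adjusted p = 0.29), −0.10 (Ndufv1, adjusted p = 0.401), −0.17 (Uqcrc1, adjusted p = 0.174), −0.22 (Atp5a1, adjusted p = 0.191) and −0.09 (Atp5b, adjusted p = 0.589), and none passed the test. The 8 nuclear genes that rose all had a coding length under 600 nt, as did 59 of the 80 tested. Of 1621 other protein-coding genes under 600 nt, 148 rose and 66 fell in the BAF155 cKO, with a median of 0.12. Of 9823 others of 1000 nt or more, 434 rose and 948 fell, with a median of −0.06.

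The count in the BAF155 cKO depended on single libraries and on the controls. It was 0 without BAF155 cKO replicate 1, without replicate 4 and without control 4, 1 without control 3, 22 without control 1 and 30 without BAF155 cKO replicate 2. BAF155 cKO replicates 1 and 4 were both above replicates 2 and 3 in 47 of the 80 genes. Replicates 1 and 2 were sequenced in lane 1 and 3 and 4 in lane 3, and lane 1 alone gave 0 genes and lane 3 alone 13. The shares of all genes called in these fits are not given here. Whether the members changed more than other genes between the fits was not tested.

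The controls formed 2 pairs. Controls 3 and 4, the female ones, were both below controls 1 and 2 in 63 of the 80 nuclear genes and both above them in 6. Against the 2 female controls alone, 40 nuclear genes rose and 1, Sdha, fell in the BAF155 cKO, with a median log2 fold change of 0.38, where 10.7% of all genes rose and 14.5% fell. Against the 2 male controls alone, 2 nuclear genes rose in the libraries labelled Pax6 cKO, Uqcrh and Atp5j, with a median of 0.30, where 3.07% of all genes rose and 4.9% fell. All 4 libraries labelled Pax6 cKO were above controls 1 and 2 in 55 of the 80 genes, and all 4 BAF155 cKO libraries were above controls 3 and 4 in 56 and above controls 1 and 2 in 0. Sex and other differences between the 2 pairs of controls, all from lane 8, cannot be told apart.

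**Figure D3:**
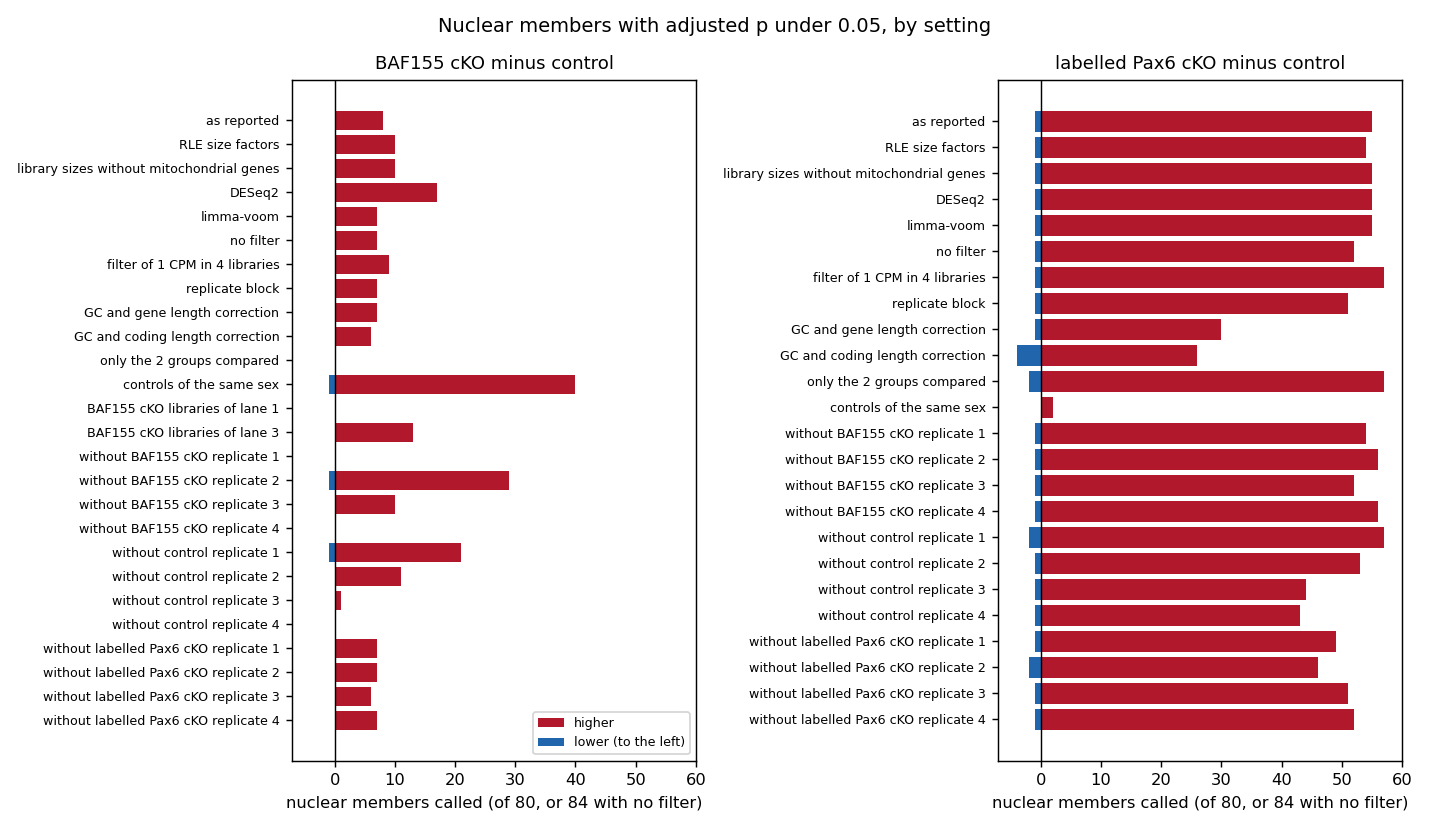
Number of nuclear genes called (horizontal axis; red, higher; blue, lower and drawn to the left) under each setting (vertical axis) for the comparison of each knockout group with control. The count for the BAF155 cKO lies between 0 and 41, and that for the libraries labelled Pax6 cKO between 2 and 59.

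The direct contrast compares the BAF155 cKO with the libraries labelled Pax6 cKO. All of the former were female and all of the latter male, so sex and knockout cannot be told apart in it. The former were in lanes 1 and 3, and the latter all in lane 1. Of the nuclear genes, 1 of 80 was called, lower in the BAF155 cKO than in the libraries labelled Pax6 cKO, and none was higher. Over all genes, 4.31% were called, 2.01% lower and 2.3% higher. The gene was Cox7a2l, which encodes a factor for supercomplexes of complexes III and IV. It was at 86.0, 83.2, 90.9 and 95.9 CPM in replicates 1 to 4 of the BAF155 cKO and at 114, 125, 109 and 107 CPM across the libraries labelled Pax6 cKO, without overlap, a log2 fold change of −0.36 (adjusted p = 0.0294, SE 0.09). The call was lost with the replicate block, with either length correction, in each lane alone and in 7 of the 12 fits that left out a library, namely those without BAF155 cKO replicate 1, 2 or 3 or any library labelled Pax6 cKO, and Cox7a2l shares 17.7% of its 50-base words with Gm6969. The median over the 80 genes was −0.21, beside 0.01 over all genes. In 8 genes all 4 BAF155 cKO libraries lay below all 4 labelled Pax6 cKO, which was so for 7.83% of all genes, and in none did they all lie above, against 7.5% of all genes. Between the 2 comparisons with control, which share their controls, the counts of 8 and 55 are not a test of a difference.

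The log2 fold changes of the nuclear genes went with the length of their coding sequence. The members are short, with a median coding length of 405 nt and a range from 156 to 2181 nt. In the libraries labelled Pax6 cKO, 48 of the 59 tested members under 600 nt rose, with a median log2 fold change of 0.52. Among the 10 members of 600 nt up to 1000 nt, 6 rose, with a median of 0.36. Among the 11 members of 1000 nt or more, 1 rose, Uqcrc2, and 1 fell, Sdha, with a median of −0.06. Across the 80 genes, Spearman's rho between the log2 fold change and the coding length was −0.536 in the libraries labelled Pax6 cKO and −0.526 in the BAF155 cKO. The genes were measured in the same libraries and are no independent replicates.

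**Figure D4:**
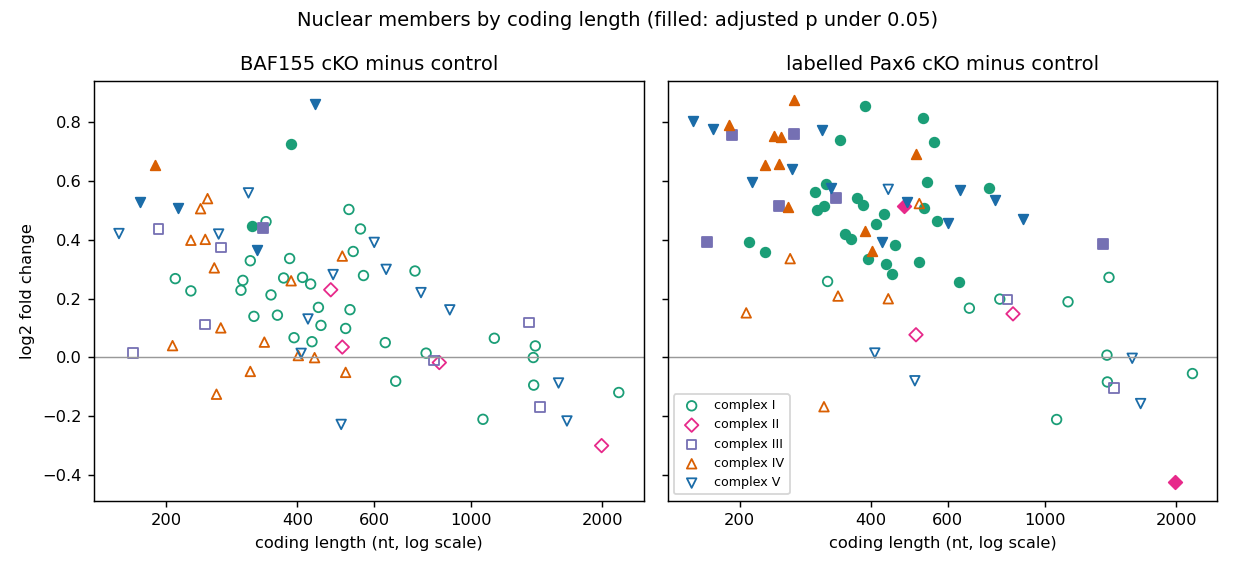
Log2 fold change against control (vertical axis) of the 80 tested nuclear genes by coding length (horizontal axis, nt, log scale), in the BAF155 cKO (left) and the libraries labelled Pax6 cKO (right), with filled symbols for genes called at an adjusted p under 0.05. Members under 600 nt lie mostly above 0, with medians of 0.27 and 0.52, and members of 1000 nt or more lie around or below it, with medians of −0.10 and −0.06.

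Protein-coding genes outside the set moved with length too. In the libraries labelled Pax6 cKO, 681 of 1621 other genes under 600 nt rose and 105 fell, with a median of 0.29, and of 9823 genes of 1000 nt or more 1019 rose and 2624 fell, with a median of −0.09. Per library, the mean deviation of other short genes minus that of other long genes was −0.05, −0.07, −0.29 and −0.26 on the log2 scale in controls 1 to 4. It was −0.01, −0.13, −0.04 and 0.16 in BAF155 cKO replicates 1 to 4 and 0.13, 0.23, 0.16 and 0.17 in replicates 1 to 4 labelled Pax6 cKO. The order of the 12 libraries by the mean deviation of the 80 nuclear members differed from their order by this measure by at most 2 places. The part of this library property in the members' values was not tested apart from the 2 corrections that follow.

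**Figure D5:**
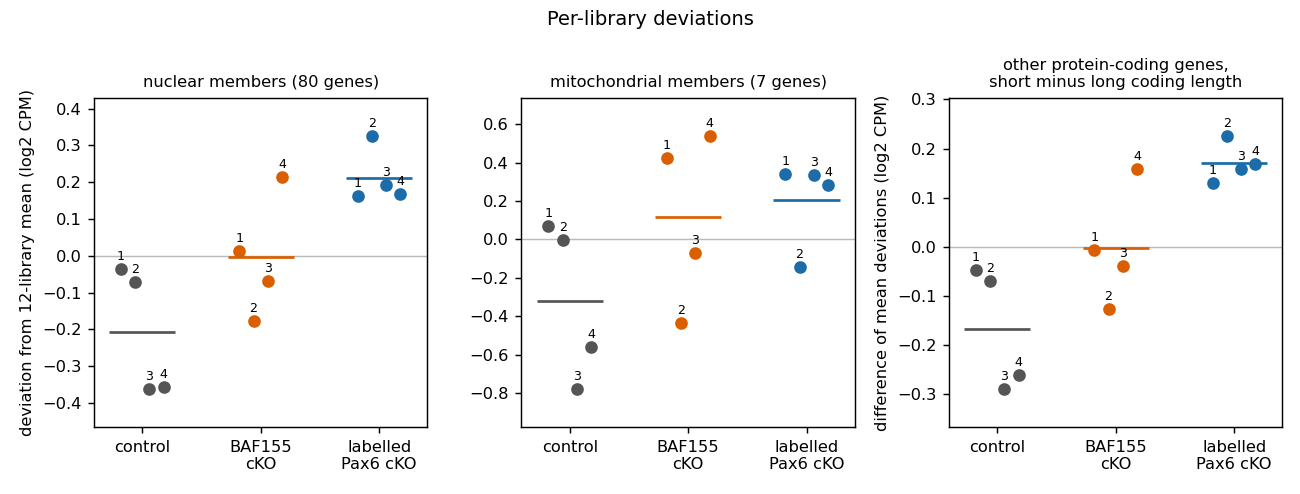
Mean deviation from the 12-library mean (vertical axes, log2 CPM) of the nuclear genes (left) and the mitochondrial genes (middle), and other short minus other long protein-coding genes (right), with a point per library, its replicate number and the group mean as a line. Controls 3 and 4 are lowest in all 3 panels, and replicate 2 labelled Pax6 cKO is the highest on the left and right and the lowest of its group in the middle.

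After a correction per library for GC content and gene length, 30 nuclear genes rose and 1 fell in the libraries labelled Pax6 cKO, with a median log2 fold change of 0.23. After one for GC content and coding length, a setting added after the data were seen, 26 rose and 4 fell, with a median of 0.17. The 24 that rose with no correction and with each of them include Ndufs4, at 0.57 and 0.54 after the corrections, Ndufb8 at 0.60 and 0.52, Uqcrh at 0.46 and 0.37, Cox4i1 at 0.59 and 0.54, Atp5mpl at 0.59 and 0.37, and Sdhd at 0.25 and 0.27. Sdha fell in all 3, at −0.46 and −0.33 after the corrections. In the BAF155 cKO, 4 genes rose in all 3, namely Ndufb4, Atp5g2, Atp5k and Atp5mpl, and the median over the 80 genes went from 0.22 to 0.06 and 0.08 after the corrections. The shares of all genes called under these corrections are not given here, so these counts stand without a background.

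The genes with a motif shown above did not stand apart by count. Among tested members with a promoter sequence, 19 of the 27 with at least 1 motif rose in the libraries labelled Pax6 cKO, with a median log2 fold change of 0.51, and 26 of the 37 with none rose and 1 fell, with a median of 0.39. Among the members shown, the log2 fold change was 0.49 for Ndufa11, 0.21 for Cox6a1, 0.52 for Sdhd and 0.80 for Atp5e, and all but Cox6a1 passed the test.

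The mitochondrial genes were counted in part. A run of 6 of them, mt-Co2, mt-Atp8, mt-Atp6, mt-Co3, mt-Nd3 and mt-Nd4l, had at most 1 read in any of the 12 libraries, while mt-Co1 and mt-Nd4 on either side had 74518 to 253454 and 18378 to 63364 reads. These 6 neighbours belong to complexes I, IV and V and are known to be transcribed together with the others from the same strand. They are listed at or near 0, and no level is given for them. On chromosome 1 of the reference (mm10, 24611535 to 24616197, minus strand) stands a copy of this stretch. Its Gm28661, Gm10925, Gm28437 and Gm10222 match mt-Co2, mt-Atp6, mt-Co3 and mt-Nd4l without a difference over 681, 678, 783 and 294 bases. The 2 sequences shown first belong to this pair of stretches. Of the 50-base words of mt-Co2, mt-Atp6, mt-Co3, mt-Nd3 and mt-Nd4l, 98.0 to 99.9% are also in the copy, as are 62.2% of mt-Nd4 and 28.7% of mt-Co1. The other empty gene, mt-Atp8, shares 0 of its 155 words with any other annotated gene. Only transcripts of annotated genes were searched, not the bases of chromosome 1 between them. Such bases lie between Gm28661 and Gm10925, the copies of mt-Co2 and mt-Atp6, which are its neighbours.

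The copy itself was nearly empty, with at most 15 reads in Gm10925 and fewer in the others, except Gm28438, which had 81 to 246 reads per library. Gm28438 is the copy that differs from mt-Nd3 at 1 base. How reads that match both places were treated by the authors is not given in the sources used here. The counts of mt-Nd4 and mt-Co1, which share part of their sequence with the copy, are uncertain for the same reason.

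The 7 mitochondrial genes with counts were mt-Nd1, mt-Nd2, mt-Nd4, mt-Nd5 and mt-Nd6 of complex I, mt-Cytb of complex III and mt-Co1 of complex IV, each a core subunit. Genes of mitochondrial DNA held 1.205 to 2.274% of the reads in control, 1.571 to 3.265% in the BAF155 cKO and 2.038 to 2.915% across the libraries labelled Pax6 cKO. The means were 1.76% ± 0.544, 2.46% ± 0.771 and 2.62% ± 0.397 (SD, n = 4 each), and all groups overlapped. All 7 genes had controls 3 and 4 below 1 and 2, and all had BAF155 cKO replicates 1 and 4 above 2 and 3.

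In the libraries labelled Pax6 cKO, 1 of the 7 rose, mt-Nd2, a share no higher than the 16.6% of all genes that rose. The median of the 7 was 0.50, and mt-Nd2 had a log2 fold change of 0.61 (adjusted p = 0.0464, SE 0.22). It was at 1932, 1890, 1030 and 1216 CPM in controls 1 to 4 and at 2583, 1753, 2509 and 2404 CPM in replicates 1 to 4 labelled Pax6 cKO. Replicate 2 lay below controls 1 and 2. The other 6 had values from 0.41 up to 0.55 and did not pass the test, the nearest being mt-Nd1 at 0.55 (adjusted p = 0.0578, SE 0.21). Without a filter on low counts, with either length correction and against the male controls, no mitochondrial gene was called. The median went from 0.50 to 0.02 after the correction for GC content and gene length and to 0.23 after that for GC content and coding length. DESeq2 called 3, and the fit of only the 2 groups compared called 4.

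In the BAF155 cKO none of the 7 passed the test, with log2 fold changes from 0.40 to 0.50 and a median of 0.42, and the smallest adjusted p was 0.122 for mt-Nd1, whose unadjusted p was 0.0336. Its levels were 3222, 3116, 1867 and 2198 CPM in controls 1 to 4 and 4307, 2404, 3152 and 4844 CPM in replicates 1 to 4 of the BAF155 cKO, so that replicate 2 lay below controls 1 and 2. After the same corrections the median was 0.04 and 0.35. Against the 2 female controls all 7 rose, with a median of 0.81, where 10.7% of all genes rose. In the direct contrast none was called, with a median of −0.04.

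Controls 3 and 4 and BAF155 cKO replicate 2 were the 3 lowest libraries by mean deviation for nuclear and for mitochondrial members alike. BAF155 cKO replicate 4 was highest for the mitochondrial members and next to highest for the nuclear ones. Replicate 2 labelled Pax6 cKO had the highest nuclear level of all 12 libraries and only the ninth highest mean deviation of the mitochondrial genes. It had 1.53 CPM of mitochondrial members per CPM of nuclear members, against 2.18 to 2.41 in the other libraries of its group. BAF155 cKO replicate 1 had the highest ratio, at 2.82, and control 3 the lowest, at 1.45.

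Other genes of the pathway were grouped by role, and their counts stand beside 16.6% of all genes higher and 18.9% lower in the libraries labelled Pax6 cKO, and 6.04% and 7.56% in the BAF155 cKO. Assembly factors, which build the complexes without being part of them, rose in 24 of 48 cases and fell in 2 in the libraries labelled Pax6 cKO, with a median log2 fold change of 0.31, and rose in 2 of 48 in the BAF155 cKO, a share below that of all genes. Fmc1, of the ATP synthase assembly path, rose in both, by 0.88 (adjusted p = 0.000118, SE 0.12) and 0.51 (adjusted p = 0.0129, SE 0.12). Uqcc1, for complex III, rose by 0.38 (adjusted p = 0.00217, SE 0.08) in the libraries labelled Pax6 cKO. Coa5 and Cox10, both for complex IV, fell there by 0.35 and 0.39 on the log2 scale (adjusted p = 0.0114 and 0.0238). With only the male controls, 2 of 48 assembly factors rose in the libraries labelled Pax6 cKO, where 3.07% of all genes rose. With only the female controls, 18 of 48 rose and 2 fell in the BAF155 cKO, beside 10.7% and 14.5% of all genes. After the corrections for gene length and coding length, the median of the assembly factors in the libraries labelled Pax6 cKO was 0.09 and 0.07.

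Among carriers of electrons and makers of coenzyme Q, 3 of 17 rose and 1 fell in the libraries labelled Pax6 cKO, and 2 of 17 rose in the BAF155 cKO, the first of these near the 16.6% of all genes. Pdss1, which starts the side chain of coenzyme Q, rose by 0.45 (adjusted p = 0.00695, SE 0.11) and 0.41 (adjusted p = 0.0298, SE 0.11), and Coq6, a hydroxylase of its ring, by 0.41 (adjusted p = 0.00471, SE 0.10) and 0.30 (adjusted p = 0.048, SE 0.10). Etfdh, which feeds electrons from fat oxidation into coenzyme Q, fell by 0.19 on the log2 scale in the libraries labelled Pax6 cKO (adjusted p = 0.0442). In the fit with only the male controls, 0 of 17 rose and 0 fell there, beside 3.07% and 4.9% of all genes. Against only the female controls, 2 of 17 rose and 0 fell in the BAF155 cKO, beside 10.7% and 14.5% of all genes.

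Genes that keep and read mitochondrial DNA rose in 9 of 18 cases and fell in 2 in the libraries labelled Pax6 cKO, and rose in 4 of 18 in the BAF155 cKO. Tefm, the elongation factor of mitochondrial transcription, rose by 0.68 (adjusted p = 0.000578, SE 0.11) in the former, and Mterf2, of the termination factor family, by 0.56 (adjusted p = 0.00161, SE 0.11). Mterf3, a repressor of that transcription, rose by 0.55 (adjusted p = 0.0106, SE 0.12) in the BAF155 cKO. Twnk, the helicase of mitochondrial DNA, and the protease Lonp1 fell by 0.35 and 0.26 on the log2 scale in the libraries labelled Pax6 cKO (adjusted p = 0.00801 and 0.02). With only the male controls, 2 of 18 rose and 0 fell there, beside 3.07% and 4.9% of all genes. With only the female controls, 5 of 18 rose and 1 fell in the BAF155 cKO, beside 10.7% and 14.5% of all genes.

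Genes of mitochondrial RNA processing rose in 7 of 17 cases and fell in 2 in the libraries labelled Pax6 cKO, and 2 of 17 rose in the BAF155 cKO. Fastkd2, which binds the large ribosomal RNA of mitochondria, rose by 0.56 (adjusted p = 0.00208, SE 0.11) and 0.40 (adjusted p = 0.0306, SE 0.11). Elac2 and Lrpprc, for tRNA ends and for mRNA stability, fell by 0.25 and 0.27 on the log2 scale in the libraries labelled Pax6 cKO (adjusted p = 0.0247 and 0.0417). Both mitochondrial ribosomal RNAs rose there, mt-Rnr2 by 0.999 (adjusted p = 0.0131, SE 0.28) and mt-Rnr1 by 0.88 (adjusted p = 0.0357, SE 0.30). The proteins of the mitochondrial ribosome, which makes the 13 mitochondrial subunits, rose in 44 of 77 cases there and in 6 of 77 in the BAF155 cKO. After the correction for GC content and coding length, 18 rose and 2 fell in the libraries labelled Pax6 cKO. With only the male controls, 3.07% of all genes rose there. In that fit 3 of 77 ribosomal proteins rose, 0 of 17 processing genes and 0 of the 2 ribosomal RNAs. With only the female controls, 29, 5 and 2 of them rose in the BAF155 cKO, where 10.7% of all genes rose.

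Nuclear regulators of respiratory genes rose in 2 of 13 cases and fell in 4 in the libraries labelled Pax6 cKO, where 16.6% of all genes rose and 18.9% fell. Those that fell include Pprc1, a coactivator of respiratory genes, by 0.45 (adjusted p = 0.00188) and Hcfc1, a large cofactor, by 0.63 (adjusted p = 0.00271), both on the log2 scale. Gabpb1, the partner of the ETS factor GABPA, rose by 0.33 (adjusted p = 0.00619, SE 0.08), and Esrrg, a nuclear receptor, rose by 0.62 (adjusted p = 0.044, SE 0.22) and, in the BAF155 cKO, by 0.71 (adjusted p = 0.0488, SE 0.23). Against only the male controls, 0 of 13 rose and 1 fell in the libraries labelled Pax6 cKO, beside 3.07% and 4.9% of all genes. Against only the female controls, 2 of 13 rose and 4 fell in the BAF155 cKO, beside 10.7% and 14.5% of all genes.

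In the tricarboxylic acid cycle, 2 of 18 rose and 4 fell in the libraries labelled Pax6 cKO, and 2 of 18 fell in the BAF155 cKO, shares not far from those of all genes, 16.6%, 18.9% and 7.56%. Ogdh, the oxoglutarate dehydrogenase, fell by 0.49 (adjusted p = 0.00113) and 0.37 (adjusted p = 0.0138) on the log2 scale, and Cs, citrate synthase, by 0.51 (adjusted p = 0.00557) across the libraries labelled Pax6 cKO. Of these 18 genes, 0 rose and 1 fell against only the male controls, beside 3.07% and 4.9% of all genes. In the BAF155 cKO, 0 rose and 4 fell against only the female controls, beside 10.7% and 14.5% of all genes. In glycolysis, 9 of 21 fell and 1 rose in the libraries labelled Pax6 cKO and 6 of 21 fell in the BAF155 cKO, with a median of −0.23 in each. With only the male controls, 1 of 21 fell in the libraries labelled Pax6 cKO, beside 4.9% of all genes. With only the female controls, 10 of 21 fell and 1 rose in the BAF155 cKO, beside 14.5% and 10.7% of all genes. Aldoc, an aldolase of radial glia and astrocytes, fell from 207 to 63.3 CPM across the libraries labelled Pax6 cKO (log2 fold change −1.71, adjusted p = 4.46e-08, SE 0.11) and to 43.7 CPM in the BAF155 cKO (−2.24, adjusted p = 4.38e-09, SE 0.11).

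Among carriers of the inner membrane and channels of the outer membrane, 3 of 12 rose and 1 fell in the libraries labelled Pax6 cKO, and 2 of 12 fell in the BAF155 cKO, beside 16.6%, 18.9% and 7.56% of all genes. Mpc2, of the pyruvate carrier, rose by 0.66 (adjusted p = 0.00137, SE 0.12) and Slc25a4, an ATP and ADP exchanger, by 0.30 (adjusted p = 0.0224, SE 0.09) in the libraries labelled Pax6 cKO, and Vdac1, an outer membrane channel, fell by 0.27 on the log2 scale (adjusted p = 0.0359). In the BAF155 cKO, Slc25a5, another exchanger of ATP and ADP, and Ucp2, an uncoupling protein, fell by 0.35 and 0.48 (adjusted p = 0.0153 and 0.0361). Against only the male controls, 1 of 12 rose and 0 fell in the libraries labelled Pax6 cKO, beside 3.07% and 4.9% of all genes. Against only the female controls, 1 of 12 rose and 3 fell in the BAF155 cKO, beside 10.7% and 14.5% of all genes.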

How the data were processed

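Per library, the authors deposited a file of raw counts, reads per gene without normalization. They used mm10, as the submitters' processing notes state. RNA was isolated with a Qiagen kit and libraries were made with a TruSeq RNA kit, per the labels' protocols, a kit that does not mark strand. Aligner, counter and annotation: not given in the sources used here. Groups and replicate numbers came from the titles, lane numbers from the names of the count files, and sex from Xist counts. GENCODE M21 gave symbols, lengths and overlaps, and levels per kb use the mRNA length, in place of the exon length first planned.

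Counts were fitted in R 4.3.3 with edgeR 4.0.16 (filterByExpr, TMM, quasi-likelihood with robust dispersion, 1 coefficient per group, no block). DESeq2 1.42.0, limma-voom (limma 3.58.1), other filters and size factors, the replicate block, the loess corrections (span 0.3), the controls of the same sex, single lanes and leaving out each library were alternatives. The fit was tested on simulated counts. Each replicate was treated as unpaired. No pair of libraries within a group agreed within sampling noise.

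Named genes are the mitochondrial members, the 5 called nuclear members of smallest adjusted p per direction and contrast, the most abundant gene per complex, isoform pairs, core subunits and 2 called genes per list and direction. Others named in the text (Ndufb4, Atp5mpl, Uqcr10, Uqcrc2, Cox5a, Atp5d, Ndufv2, Ndufs8, Ndufa11, Sdhd and Atp5e) were chosen after their values were seen. The members and lists were chosen with earlier results of these data known. Prorp and Fastkd4 were not analysed here. The values of 1 nuclear member are not reported here, though it stays in the counts and medians.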

Additional observations from a re-analysis of the deposited data

Results flagged for a closer look

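In 4 of 126 groups of 4 libraries tested, 1 library stood apart from the other 3 of its group, and chance alone marks about 1 group in 20. Replicate 2 labelled Pax6 cKO had 1380 CPM of mt-Nd4, a complex I subunit, where the other 3 had 1923 to 1970 CPM. The same library was highest in Ndufb9, an accessory subunit of complex I, at 217 CPM against 192 to 196 CPM. In Atp5g2, for the c subunit of ATP synthase, replicate 3 labelled Pax6 cKO had 2.47 CPM against 1.88 to 1.91 CPM. In Ndufa4, of complex IV, replicate 4 labelled Pax6 cKO had 297 CPM against 302 to 303 CPM, a gap of a few CPM in a group of narrow range.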

How the results depend on the processing

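The counts of members called depended on the setting. Shares of all genes called are given only for the fit reported and for the controls of the same sex. The other counts here stand without a background. For nuclear members in the BAF155 cKO, reported as 8, DESeq2 gave 17, the fit of only the 2 groups 0, the controls of the same sex 41, lane 1 alone 0 and lane 3 alone 13, and leaving out single libraries gave 0 to 30. For mitochondrial members there, reported as 0, the controls of the same sex gave 7 and leaving out single libraries 0 to 3. For nuclear members in the libraries labelled Pax6 cKO, reported as 56, the correction for GC content and gene length gave 31, that for GC content and coding length, added after the data were seen, 30, and the controls of the same sex 2, and leaving out single libraries gave 44 to 59. For mitochondrial members there, reported as 1, DESeq2 gave 3, limma-voom 2, no filter 0, each correction 0, the fit of only the 2 groups 4 and the controls of the same sex 0, and leaving out single libraries gave 0 to 4. In the direct contrast, reported as 1 nuclear member, DESeq2 gave 2, and each correction, lane 1 alone and lane 3 alone gave 0, and leaving out single libraries gave 0 to 6. With the replicate number as a block, the nuclear counts were 7, 52 and 0 in the 3 contrasts and the mitochondrial counts 0, 1 and 0, so the block removed the call of Cox7a2l, while deviations of same-numbered libraries correlated at −0.228 to 0.377, which does not pair them, and were highest for their own number in 6 of 24 cases. The cause of these changes was not tested, except that single lanes and same-sex controls use fewer libraries.

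Atp5g1 in the libraries labelled Pax6 cKO had a log2 fold change of 0.01 and, with GC content and coding length corrected, −0.29 (edgeR adjusted p = 0.0335). The group means of the mitochondrial share and of the summed nuclear level moved by less than 1 SD under their alternatives. The named genes' values were also compared under settings other than leaving out a library. Of these, 1347 stayed on the same side of the threshold, 56 no longer passed and 36 newly passed. In 1 more the direction reversed and either fit passed. Changes of direction where neither fit passed are counted with the 1347. With 4 libraries per group, the spread between controls limits what can be called, and members at a few reads, such as Cox6a2 and Cox8b, have no usable level.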
